A study of Mus musculus with 8 samples.

Results

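In 8 RNA-seq libraries of tumor-associated endothelial cells (TECs), sorted as CD45-CD31+, 35 genes best known from tumor macrophages and neutrophils were followed. They were picked by gene symbol, and each of the 35 was found among the 33641 genes listed per library. By their best known expression, 15 are macrophage genes (among them *Csf1r*, *Cd68*, *Cd14*, *Fcgr1*, *Mrc1*, *Cd163*, *Msr1*, *Marco*, *C1qa*, *C1qb*, *C1qc*, *Apoe*, *Trem2*, *Mpeg1*), 5 are neutrophil genes (*S100a8*, *S100a9*, *Retnlg*, *Csf3r*, *Lcn2*) and 15 are used by both cell types (*Lyz2*, *Ptprc*, *Fcgr2b*, *Fcgr3*, *Fcgr4*, *Fcer1g*, *Tyrobp*, *Ctss*, *Spi1*, *Laptm5*, *Cybb*, *Ncf1*, *Ncf4*, *Chil3*, *Clec7a*).

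RNA-seq was done on TECs from Lewis lung carcinoma (LLC) tumors, which grow from a mouse lung cancer line injected into the left lung lobe of mice aged 6 to 8 weeks, and the tumors were collected at day 21. The 4 endFoxf1+/- libraries (H1 to H4) come from mice with 1 floxed *Foxf1* allele and the tamoxifen-inducible *Pdgfb*-iCreER transgene whose *Pdgfb* promoter directs Cre to endothelial cells, where it removes that allele. The 4 control libraries (C1 to C4) come from mice described as tamoxifen-treated littermates with either the floxed allele or the Cre transgene alone, while the methods for the tumor model name C57Bl/6 wild-type controls, and the labels do not say which genotype each control library has. Whether a library holds 1 mouse or a pool is not stated, so p-values measure the spread between these libraries.

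Macrophages in tumors arise mainly from blood monocytes under the growth factor receptor encoded by *Csf1r*, engulf dead cells and debris, and in lung tumors can take on a tissue-repair program with the mannose receptor and complement C1q. Neutrophils are short-lived granulocytes that carry the calcium-binding proteins S100A8 and S100A9 in great amounts. Both cell types bear CD45, the protein of *Ptprc*, so a sort for cells without CD45 is meant to leave them out.

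Before any comparison, 2 libraries need naming. Levels are given as TPM, a gene's share of the transcripts after correction for length, scaled to a sum of 1000000 per library, and the sequencing depth behind them is unknown. The geometric mean of 20 endothelial markers lay between 85.1% and 110% of the control mean in C1 to C4, H1 (103%) and H2 (106%), but at 5.52% in H3 and 55.6% in H4. The median correlation of log2 levels with the other libraries was 0.795 for H3 and 0.892 for H4, against 0.958 to 0.968. *Foxf1* itself measured 213, 285, 296 and 331 TPM in C1 to C4 and 177, 203, 14.04 and 105 TPM in H1 to H4, so every endFoxf1+/- library was below every control library and the lowest was the library poorest in endothelial markers. The main differences are therefore also given without H3, and where stated without H3 and H4. In bulk RNA, fewer cells of a type and less RNA per cell cannot be told apart.

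**Figure D1:**
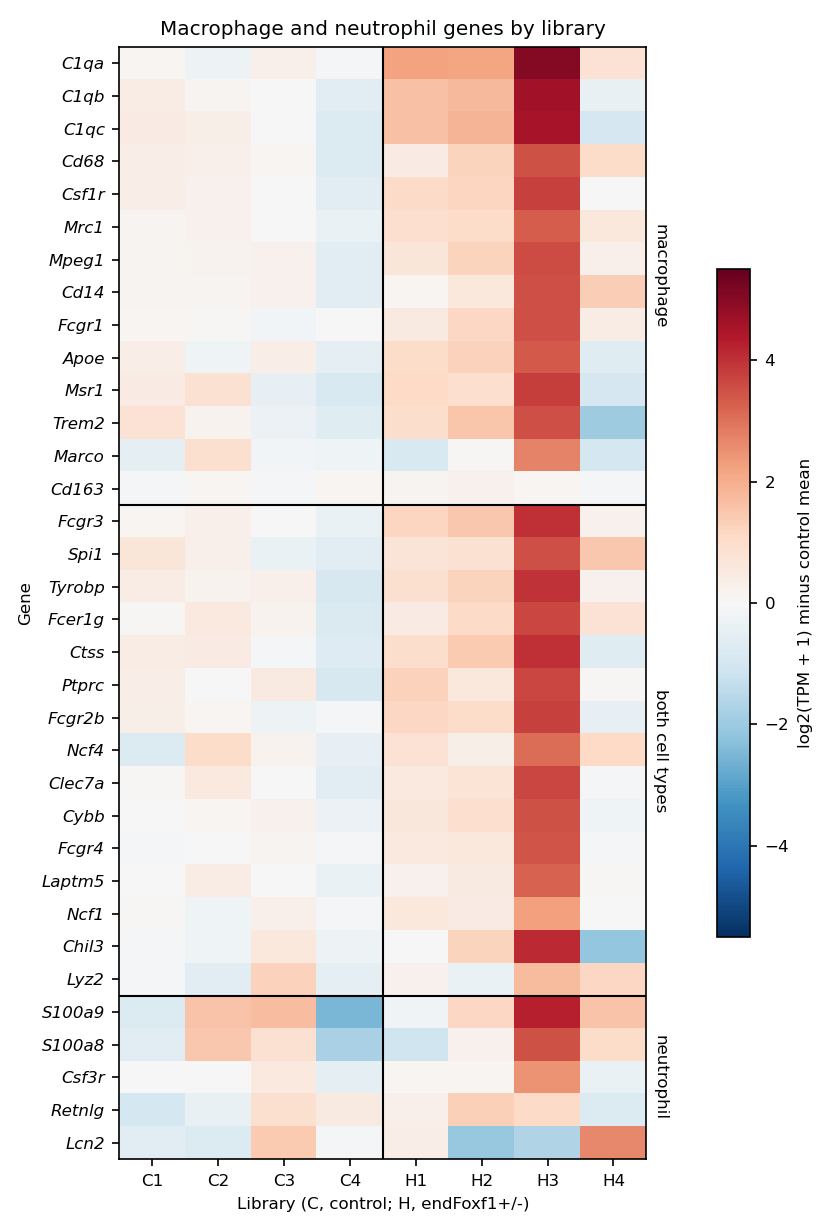
Level of 34 of the 35 genes in each library, as log2(TPM + 1) minus the mean of the 4 control libraries, with genes in rows by cell type and libraries in columns. In H3, 34 of 35 genes are above every control library (16.8% of tested genes), while H1 and H2 are both above every control for 13 of 15 macrophage genes (20.2% of tested genes) and H4 is for 10 of 35 genes (24.2%).

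The main contrast of these genes was between libraries rather than between the 2 groups. H3 held the highest level of 32 of the 35 genes, against 13.1% of the 14964 genes tested (those with at least 1 TPM in at least 4 libraries), and the exceptions were *Cd163*, *Retnlg* and *Lcn2*. In H3, 31 genes reached at least 5 times the control mean, against 3.57% of tested genes. H1, H2 and H3 were each above every control library for 23 of the 35 genes, against a background of 5.71%. These 23 were made up of 13 of 15 macrophage genes, 10 of 15 shared genes and 0 of 5 neutrophil genes. H1 and H2 alone were both above every control for the same 23 genes, against 20.2% of tested genes.

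H4 followed neither pattern. It was above every control library for 10 genes, against 24.2% of tested genes, and these were *C1qa*, *Cd14*, *Cd68*, *Fcer1g*, *Fcgr1*, *Lcn2*, *Mpeg1*, *Mrc1*, *Ncf4* and *Spi1*. It was below every control for 8 genes, against 49.4%, namely *Apoe*, *C1qc*, *Cd163*, *Chil3*, *Fcgr2b*, *Marco*, *Msr1* and *Trem2*. These 8 were also the genes with their lowest level of all libraries in H4 (background 22.4%), and *Lcn2* was the 1 gene with its highest level there (background 16.2%). Among the controls, C4 was the lowest of all 8 libraries for 19 of the 35 genes, against 4.91% of tested genes.

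Set as percent of the control mean, the geometric mean level of the 15 macrophage genes ranged from 68.7% to 119% in the controls and was 193% in H1, 239% in H2, 1265% in H3 and 89.9% in H4. The shared genes without the abundant *Lyz2* ran nearly the same course, at 68.4% to 118% in the controls and 167%, 190%, 1273% and 100% in H1 to H4. The neutrophil genes without *Lcn2* spread more widely among the controls, from 29.9% to 179%, and measured 68.1%, 143%, 689% and 110% in H1 to H4. For neutrophil genes, only H3 thus lay outside the range of the controls. The 35 genes together took 0.197% to 0.624% of all TPM in the controls, 0.377% in H1, 0.307% in H2, 1.56% in H3 and 0.639% in H4.

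**Figure D2:**
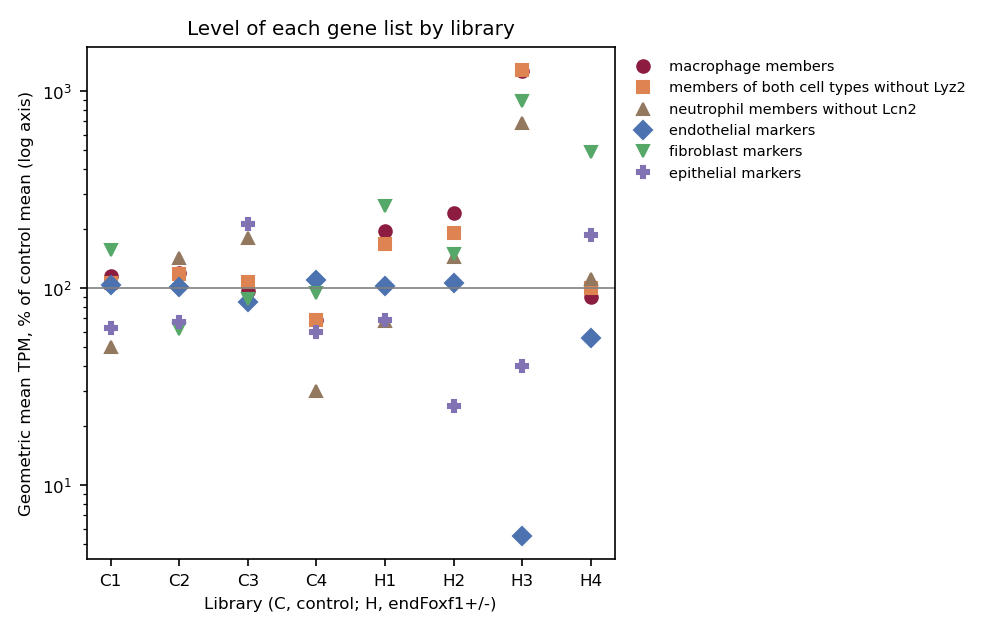
Geometric mean level of each marker list in each library, as percent of the mean of the 4 control libraries on a log axis. Macrophage genes stand at 193% in H1, 239% in H2 and 1265% in H3 while endothelial markers stand at 103%, 106% and 5.52%.

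The complement genes *C1qa*, *C1qb* and *C1qc* encode the 3 chains of C1q, which starts the classical complement pathway, and in tissue they come mostly from macrophages. They lie side by side on the minus strand of mouse chromosome 4 (GRCm38), *C1qb* at chr4:136880129-136886187, *C1qc* at chr4:136889804-136893065 and *C1qa* at chr4:136895917-136898803. *C1qa* measured 4.57, 3.19, 5.35 and 3.79 TPM in C1 to C4 and 23.2, 22.1, 171 and 8.04 TPM in H1 to H4. Every endFoxf1+/- library was above every control, H4 by the least. The mean was 4.23 ± 0.935 (SD, n = 4) in controls and 56.1 ± 76.9 TPM (SD, n = 4) in endFoxf1+/-, a difference of 2.56 ± 0.75 (SE) on the log2(TPM + 1) scale with an exact permutation p of 0.0286, the smallest that 4 against 4 libraries allow. The p adjusted over all tested genes by limma and Benjamini-Hochberg was 0.790. Without H3 the difference was 1.73 ± 0.37 (adjusted p = 0.404 by limma), and without H3 and H4 it was 2.19 ± 0.21 (adjusted p = 0.0365 by limma), where *C1qa* was 1 of 3 genes past the threshold of 0.05.

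*C1qb* measured 31.2, 26.3, 23.8 and 15.2 TPM in C1 to C4 and 72.4, 82.8, 592 and 17.2 TPM in H1 to H4. Its neighbour *C1qc* measured 17.8, 15.9, 12.6 and 7.01 TPM in C1 to C4 and 40.6, 48.3, 319 and 6.18 TPM in H1 to H4. H1, H2 and H3 were above all controls for both genes, whereas H4 lay within the controls for *C1qb* and below them for *C1qc*. The log2 differences were 1.89 ± 0.86 and 1.77 ± 0.94 over all libraries, and 0.98 ± 0.52 and 0.85 ± 0.65 without H3 (adjusted p = 0.790 for both over all libraries, limma). Without H3 and H4 they were 1.69 ± 0.26 and 1.73 ± 0.32 (adjusted p = 0.192 for both, limma). The ratio of *C1qc* to *C1qb* was 0.461 to 0.604 in controls and 0.560, 0.583, 0.538 and 0.360 in H1 to H4. That of *C1qa* to *C1qb* was 0.146, 0.121, 0.224 and 0.250 in C1 to C4 and 0.320, 0.267, 0.289 and 0.468 in H1 to H4. In the second ratio, each endFoxf1+/- library was above each control, so *C1qa* was higher relative to its neighbour as well as in level.

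The gene starts of several of these genes hold the PU box, the purine-rich sequence bound by PU.1, the transcription factor that *Spi1* encodes and that myeloid cells need. In RefSeq windows from 250 bases before to 50 after each start (GRCm38.p6), the 6 letters GAGGAA or their reverse complement TTCCTC were present in 18 of the 27 genes with a window (66.7%), against 31.3% of 27025 genes. The longer GAGGAAGT or ACTTCCTC, which contains the shorter motif, was present in 4 of 27 (14.8%, *C1qc*, *Ctss*, *Fcgr4* and *S100a8*) against 3.69% of genes. A match is a string of letters and was not tested as a binding site. The windows of 2 C1q genes, of the macrophage gene *Cd68* and of the neutrophil gene *S100a8* are printed 5′ to 3′ on the strand of the gene to show where the motif, in capitals, falls in genes of either cell type.
*C1qb*, chr4:136886151-136886450, minus strand: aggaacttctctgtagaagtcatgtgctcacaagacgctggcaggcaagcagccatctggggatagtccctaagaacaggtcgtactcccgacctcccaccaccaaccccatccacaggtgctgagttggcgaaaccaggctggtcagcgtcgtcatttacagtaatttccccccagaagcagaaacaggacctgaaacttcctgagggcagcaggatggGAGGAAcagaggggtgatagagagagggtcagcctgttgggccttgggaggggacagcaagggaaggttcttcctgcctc
*C1qc*, chr4:136892865-136893164, minus strand: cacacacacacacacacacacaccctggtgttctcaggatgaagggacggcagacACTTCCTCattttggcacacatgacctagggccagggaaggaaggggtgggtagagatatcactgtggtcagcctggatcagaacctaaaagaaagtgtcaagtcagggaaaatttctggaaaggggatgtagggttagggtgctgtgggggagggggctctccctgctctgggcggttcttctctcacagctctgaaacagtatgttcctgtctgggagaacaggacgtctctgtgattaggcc
*Cd68*, chr11:69666121-69666420, minus strand: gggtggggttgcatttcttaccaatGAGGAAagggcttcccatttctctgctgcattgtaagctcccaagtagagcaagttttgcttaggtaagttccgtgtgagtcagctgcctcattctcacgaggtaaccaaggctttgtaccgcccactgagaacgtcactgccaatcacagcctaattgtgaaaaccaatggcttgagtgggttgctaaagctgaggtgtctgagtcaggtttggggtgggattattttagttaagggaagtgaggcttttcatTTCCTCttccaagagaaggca
*S100a8*, chr3:90668821-90669120, plus strand: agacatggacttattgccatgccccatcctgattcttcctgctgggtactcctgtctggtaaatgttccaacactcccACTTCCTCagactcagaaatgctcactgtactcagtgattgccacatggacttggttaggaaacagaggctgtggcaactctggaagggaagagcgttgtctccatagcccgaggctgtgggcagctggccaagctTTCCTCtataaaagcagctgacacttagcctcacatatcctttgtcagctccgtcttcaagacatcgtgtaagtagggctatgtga

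*Spi1*, on chromosome 2 at chr2:91082390-91115756, measured 5.32, 3.74, 2.04 and 1.62 TPM in C1 to C4 and 5.46, 5.97, 45.5 and 9.88 TPM in H1 to H4. The groups did not overlap, although H1 exceeded C1 by little. The log2 difference was 1.64 ± 0.62 (exact permutation p = 0.0286) and 1.004 ± 0.36 without H3 (exact permutation p = 0.0571, where 0.0286 is the smallest possible).

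Among genes of the macrophage surface and lysosome, 4 more separated the groups in every library. *Cd68*, a glycoprotein of macrophage lysosomes, measured 57.5, 55.2, 48.2 and 25.9 TPM in C1 to C4 and 60.9, 106, 522 and 89.8 TPM in H1 to H4. *Mrc1*, the mannose receptor, measured 2.33, 2.53, 1.95 and 1.33 TPM in C1 to C4 and 4.77, 4.99, 28.8 and 3.54 TPM in H1 to H4. Both were above all controls in each endFoxf1+/- library, *Cd68* narrowly in H1. *Mpeg1*, a pore-forming protein of phagosomes, measured 7.61, 7.94, 8.27 and 4.19 TPM in C1 to C4 and 11.3, 17.0, 93.0 and 8.47 TPM in H1 to H4. *Fcgr1*, the high-affinity IgG receptor CD64 found on monocytes and macrophages, measured 0.716, 0.662, 0.402 and 0.539 TPM in C1 to C4 and 1.25, 2.43, 17.2 and 1.07 TPM in H1 to H4. *Fcgr1* was under 1 TPM in every control, so it entered the test only through the endFoxf1+/- libraries.

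The log2 differences were 1.54 ± 0.61 for *Cd68*, 1.46 ± 0.55 for *Mrc1*, 1.43 ± 0.65 for *Mpeg1* and 1.39 ± 0.63 for *Fcgr1*. *Cd68*, *Mrc1* and *Mpeg1* each had an exact permutation p of 0.0286 with all libraries and, without H3, again 0.0286. Without H3 the differences were 0.89 ± 0.31, 0.85 ± 0.24, 0.71 ± 0.30 and 0.68 ± 0.26 in the same order. None passed adjustment over all genes by limma and Benjamini-Hochberg (0.790 for each with all libraries).

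With *C1qa* and *Spi1*, these make 6 of the 35 genes whose groups did not overlap, all higher in endFoxf1+/-, against 2.73% of tested genes. They are 5 macrophage genes, 1 shared gene and 0 neutrophil genes, and *Fcgr1* is counted among them although its low level in the controls and the filter on low values tie its entry to this direction. The same 6 were found without H3, when the background was 6.50%. In the other direction 0 of the 35 genes separated the groups, against 2.31%.

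**Figure D3:**
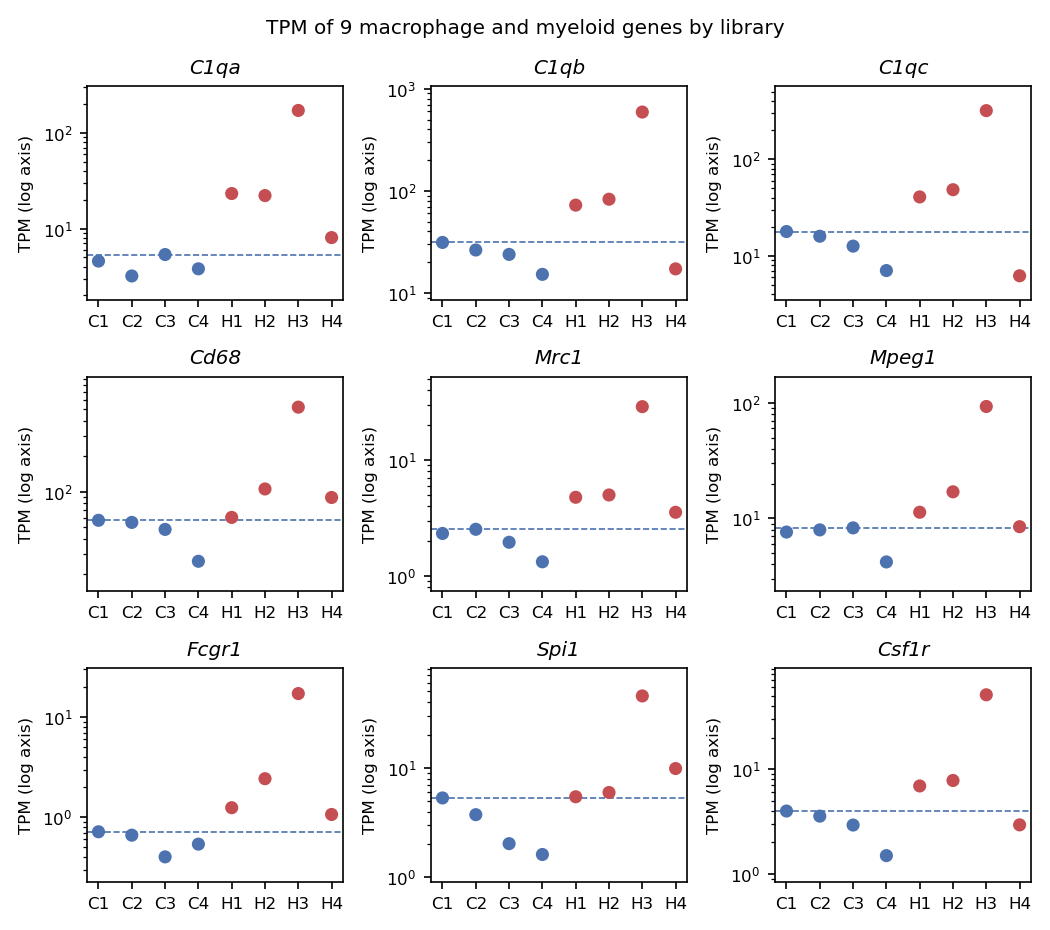
TPM of selected genes in each library on log axes, control libraries in blue and endFoxf1+/- libraries in red, with a dashed line at the highest control library. All 4 endFoxf1+/- libraries lie above the line for *C1qa* and *Cd68*, and H1, H2 and H3 do for *C1qb*.

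*Csf1r*, the receptor on which macrophages depend, measured 3.99, 3.57, 2.93 and 1.499 TPM in C1 to C4 and 6.91, 7.80, 51.1 and 2.94 TPM in H1 to H4. For this gene, H1, H2 and H3 were above all controls and H4 lay within them. The log2 difference was 1.499 ± 0.69 over all libraries and 0.75 ± 0.36 without H3.

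*Apoe*, a lipid carrier that macrophages secrete, was the most abundant macrophage gene, at 97.9 to 178 TPM in controls and 281, 336, 1431 and 86.6 TPM in H1 to H4. *Trem2*, a lipid-sensing receptor of tissue macrophages, was at 2.80 to 9.65 TPM in controls and 11.0, 16.7, 70.7 and 0.584 TPM in H1 to H4. *Msr1*, a scavenger receptor, was at 1.68 to 7.63 TPM in controls and 9.26, 8.02, 67.1 and 1.54 TPM in H1 to H4. In these 3 genes H1, H2 and H3 were above every control and H4 was below every control. Their log2 differences over all libraries were 1.26 ± 0.71, 1.03 ± 0.96 and 1.22 ± 0.87, and without H3 they were 0.55 ± 0.46, 0.19 ± 0.79 and 0.36 ± 0.58, each smaller than 2 SE.

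*Cd14*, the co-receptor for bacterial lipopolysaccharide, was at 7.38 to 13.7 TPM in controls and 12.5, 17.2, 144 and 30.5 TPM in H1 to H4, with H1 inside the control range. Of the remaining scavenger receptors, *Cd163* stayed below 1 TPM in all libraries, at 0.0830 to 0.275 in controls and 0.310, 0.382, 0.282 and 0.0775 TPM in H1 to H4. *Marco*, typical of alveolar macrophages, was at 0.385 to 2.61 TPM in controls and 0.0832, 1.04 and 11.9 TPM in H1, H2 and H3, and was listed at 0 in H4. Neither *Cd163* nor *Marco* reached 1 TPM in 4 libraries, so neither was tested.

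The Fc receptor genes *Fcgr2b*, *Fcgr4*, *Fcgr3* and *Fcer1g*, which bind antibody or pass on its signal, lie between chr1:170958617-170976547 (*Fcgr2b*) and chr1:171229572-171234365 (*Fcer1g*). *Fcgr3*, an activating receptor, measured 9.20, 10.5, 8.51 and 6.29 TPM in C1 to C4 and 20.9, 25.8, 153 and 10.1 TPM in H1 to H4. H4 fell just below the highest control, and the other 3 libraries were above it. The log2 difference was 1.74 ± 0.68 over all libraries and 0.97 ± 0.32 without H3, with an exact permutation p of 0.0571 in both cases. *Fcgr2b*, the inhibitory receptor, was at 3.25 to 5.51 TPM in controls and 10.7, 9.68, 70.6 and 2.77 TPM in H1 to H4. *Fcgr4* was at 1.60 to 2.09 TPM in controls and 3.12, 3.25, 30.3 and 1.69 TPM in H1 to H4. *Fcgr2b* and *Fcgr3* are similar in part of their sequence, and how reads shared between them were assigned is not given in the sources used here.

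*Fcer1g* and *Tyrobp* encode the small adaptors that carry the signal of many myeloid receptors into the cell. *Tyrobp* measured 116, 100, 106 and 47.7 TPM in C1 to C4 and 161, 209, 1413 and 103 TPM in H1 to H4. *Fcer1g* was at 30.9 to 79.5 TPM in controls and 75.0, 116, 709 and 95.0 TPM in H1 to H4. *Tyrobp* overlapped the controls only in H4, and *Fcer1g* only in H1. Their log2 differences were 1.58 ± 0.72 and 1.501 ± 0.65, and without H3 they were 0.78 ± 0.35 and 0.77 ± 0.31.

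*Ptprc*, which encodes the CD45 protein used as the exclusion marker of the sort, measured 8.21, 6.42, 9.13 and 2.94 TPM in C1 to C4 and 16.5, 9.93, 91.2 and 6.61 TPM in H1 to H4. Its mRNA was above 1 TPM in all 8 libraries, and H3 held the most. H1, H2 and H3 were above all controls and H4 lay among them, with a log2 difference of 1.41 ± 0.71 over all libraries and 0.65 ± 0.40 without H3. Relative to *Tyrobp*, *Ptprc* was at 0.0616 to 0.0862 in controls and 0.102, 0.0475, 0.0645 and 0.0644 in H1 to H4, so H3 with its high *Ptprc* level had a ratio inside the range of the controls.

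Of the genes for the NADPH oxidase, the enzyme with which phagocytes make reactive oxygen, *Cybb* (the membrane subunit) was at 2.95 to 4.73 TPM in controls and 6.49, 8.27, 54.1 and 3.18 TPM in H1 to H4. *Ncf1* was at 4.03 to 6.31 TPM in controls and 7.97, 7.001, 27.4 and 4.99 TPM in H1 to H4. *Ncf4* was at 1.14 to 6.42 TPM in controls and 5.34, 3.60, 29.9 and 6.85 TPM in H1 to H4. The cytosolic subunit *Ncf1* thus had the lowest ratio in H3 of the 3, at 5.48 times the control mean against 13.8 for *Cybb* and 9.68 for *Ncf4*. *Ctss*, a lysosomal protease, was at 42.7 to 96.5 TPM in controls and 140, 191, 1158 and 43.8 TPM in H1 to H4. *Laptm5*, a lysosomal membrane protein of blood cells, was at 10.9 to 19.7 TPM in controls and 17.2, 20.9, 144 and 15.3 TPM in H1 to H4, and *Clec7a*, the fungal glucan receptor, was at 4.09 to 9.93 TPM in controls and 10.1, 11.9, 95.0 and 6.16 TPM in H1 to H4. All of these had H3 far above the rest and H4 at or near the controls.

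*Chil3*, a chitinase-like protein of alternatively activated macrophages and of neutrophil precursors, measured 28.8, 25.4, 46.4 and 25.2 TPM in C1 to C4 and 30.3, 72.1, 536 and 6.30 TPM in H1 to H4. Its direction hung on H3, with a log2 difference of 0.80 ± 1.06 over all libraries and -0.30 ± 0.67 without it. The close copy *Chil4* was at or below 0.330 TPM in every library, and how reads shared by the copies were assigned is not given in the sources used here.

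The neutrophil genes showed wide spread within the controls and no separation of the groups. *S100a8*, at chr3:90668978-90670035, measured 7.19, 33.6, 21.1 and 2.56 TPM in C1 to C4 and 4.64, 13.3, 139 and 23.4 TPM in H1 to H4. Its partner *S100a9* on the same chromosome, at chr3:90692632-90695721, measured 7.02, 39.7, 42.8 and 1.40 TPM in C1 to C4 and 11.0, 28.9, 264 and 39.9 TPM in H1 to H4. For both, the library H3 alone exceeded the controls, and the controls themselves differed by more than 10-fold. The log2 differences were 0.91 ± 0.99 for *S100a8* (exact permutation p = 0.486) and 1.70 ± 1.11 for *S100a9* (exact permutation p = 0.257), and without H3 they were 0.04 ± 0.81 and 0.84 ± 1.01.

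*Csf3r*, the receptor for the neutrophil growth factor G-CSF, measured 1.46, 1.46, 2.54 and 0.677 TPM in C1 to C4 and 1.65, 1.63, 12.7 and 0.897 TPM in H1 to H4. Its log2 difference was 0.58 ± 0.59 and turned to -0.05 ± 0.30 without H3. *Retnlg*, a secreted protein of mature neutrophils, measured 0.538, 1.28, 4.42 and 3.17 TPM in C1 to C4 and 2.67, 6.33, 5.17 and 0.750 TPM in H1 to H4. In H3 it stood at 2.20 times the control mean against 8.65 for *S100a8*, 11.6 for *S100a9* and 8.23 for *Csf3r*.

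*Lcn2* and *Lyz2* were, with *Apoe*, the most abundant of the 35 genes. *Lcn2* did not have its highest level in H3, whereas *Lyz2* did, at 2.87 times the control mean. *Lcn2* encodes an iron-binding protein that neutrophils store and that lung epithelium also makes, and it measured 133, 122, 560 and 191 TPM in C1 to C4 and 263, 47.9, 63.9 and 1271 TPM in H1 to H4. *Lyz2* encodes the lysozyme of myeloid cells and of alveolar type 2 cells, and it measured 1875, 1351, 4955 and 1400 TPM in C1 to C4 and 2408, 1582, 6870 and 4476 TPM in H1 to H4. C3 and H4 were the 2 highest libraries for *Lcn2*, and H3, C3 and H4 the 3 highest for *Lyz2*. The log2 difference was -0.19 ± 0.97 for *Lcn2* (exact permutation p = 0.914) and 0.68 ± 0.59 for *Lyz2* (exact permutation p = 0.257). Without H3 these were 0.31 ± 1.01 and 0.33 ± 0.52.

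The alveolar type 2 cell gene *Sftpb* measured 515, 393, 1788 and 437 TPM in C1 to C4 and 520, 134, 66.5 and 1914 TPM in H1 to H4, so C3 and H4 were its highest libraries too. The geometric mean of 8 epithelial markers was 210% of the control mean in C3 and 187% in H4, and 25.03% to 68.7% in the other libraries. This list was not uniform in H3, where its median level was 39.540 TPM against 14.9 to 39.534 TPM in controls. The log2 difference of the keratin gene *Krt18* was 0.83 over all libraries and 0.16 without H3, whereas that of *Sftpc* was -1.12 and -0.44. The part of epithelial cells in the *Lcn2* and *Lyz2* levels was not tested. *Lyz2* alone made up 44.2% to 79.5% of the summed TPM of the 35 genes, with the lowest share in H3. Relative to *Tyrobp*, *Lyz2* was at 13.5 to 46.8 in controls and 14.9, 7.57, 4.86 and 43.6 in H1 to H4. Its neighbour and close copy *Lyz1*, at chr10:117287797-117292868, measured 30.4, 38.6, 178 and 49.7 TPM in C1 to C4 and 71.2, 20.8, 33.5 and 137 TPM in H1 to H4, and how reads shared by the 2 lysozyme genes were assigned is not given in the sources used here.

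**Figure D4:**
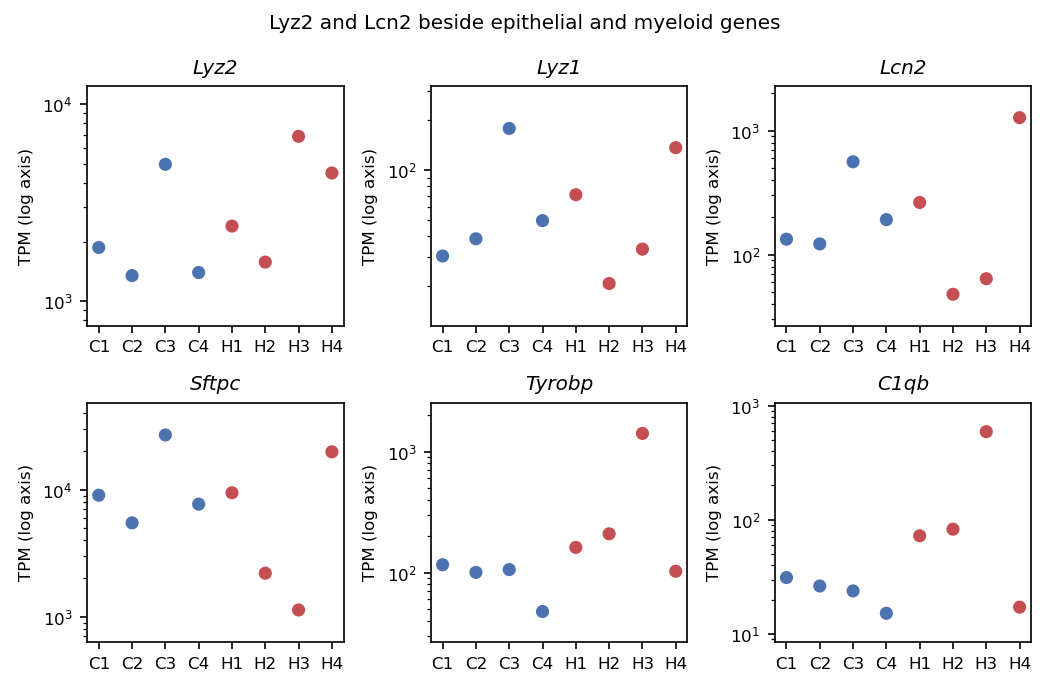
*Lyz2*, *Lyz1*, *Lcn2*, *Sftpc* (surfactant protein C, an alveolar type 2 cell gene), *Tyrobp* and *C1qb* in each library, as TPM on log axes, control libraries in blue and endFoxf1+/- libraries in red. C3 and H4 are the highest libraries for *Lcn2* (560 and 1271 TPM) and for *Sftpc* (26986 and 19867 TPM), while H3 is highest for *Lyz2* and *Tyrobp*.

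Over all 8 libraries, the mean log2 level was higher in endFoxf1+/- for 34 of the 35 genes, against 32.0% of tested genes, and lower for *Lcn2* alone, which turned to 0.13 with quantile normalization and 0.0039 with median ratio scaling. The median difference of the 35 genes was 1.37, against -0.17 for all tested genes. It was 1.43 for macrophage, 1.34 for shared and 0.58 for neutrophil genes. Without H3, 32 genes were higher (background 51.7%), *Chil3*, *Csf3r* and *Marco* were lower, and the median was 0.57 against 0.01. Without H3 and H4, 31 were higher (background 70.7%) with a median of 0.80 against 0.14.

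Of the 33 genes tested with limma, 0 passed the adjusted threshold of 0.05, as did 0% of the 14964 genes, and the smallest adjusted p among the 35 genes was 0.790. By limma, 836 of all tested genes had an unadjusted p under 0.05. Without H3 again 0 of the 35 passed adjustment (0.00668% of all tested genes did), and without H3 and H4 *C1qa* passed (0.0134% of tested genes were higher and 0.00668% lower). At an unadjusted p under 0.05, 7 genes were higher by limma (among them *C1qa*, *Cd68*, *Fcer1g*, *Fcgr3*, *Mrc1*, *Spi1*), against 2.82% of tested genes, and 0 neutrophil genes were among them. Without H3 the number was 8 (background 4.83%), with *Fcgr1*, which the filter favours, and *Mpeg1* among them. Without H3 and H4 it was 19 (background 9.87%), of which 11 were macrophage genes, 8 shared genes and 0 neutrophil genes.

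**Figure D5:**
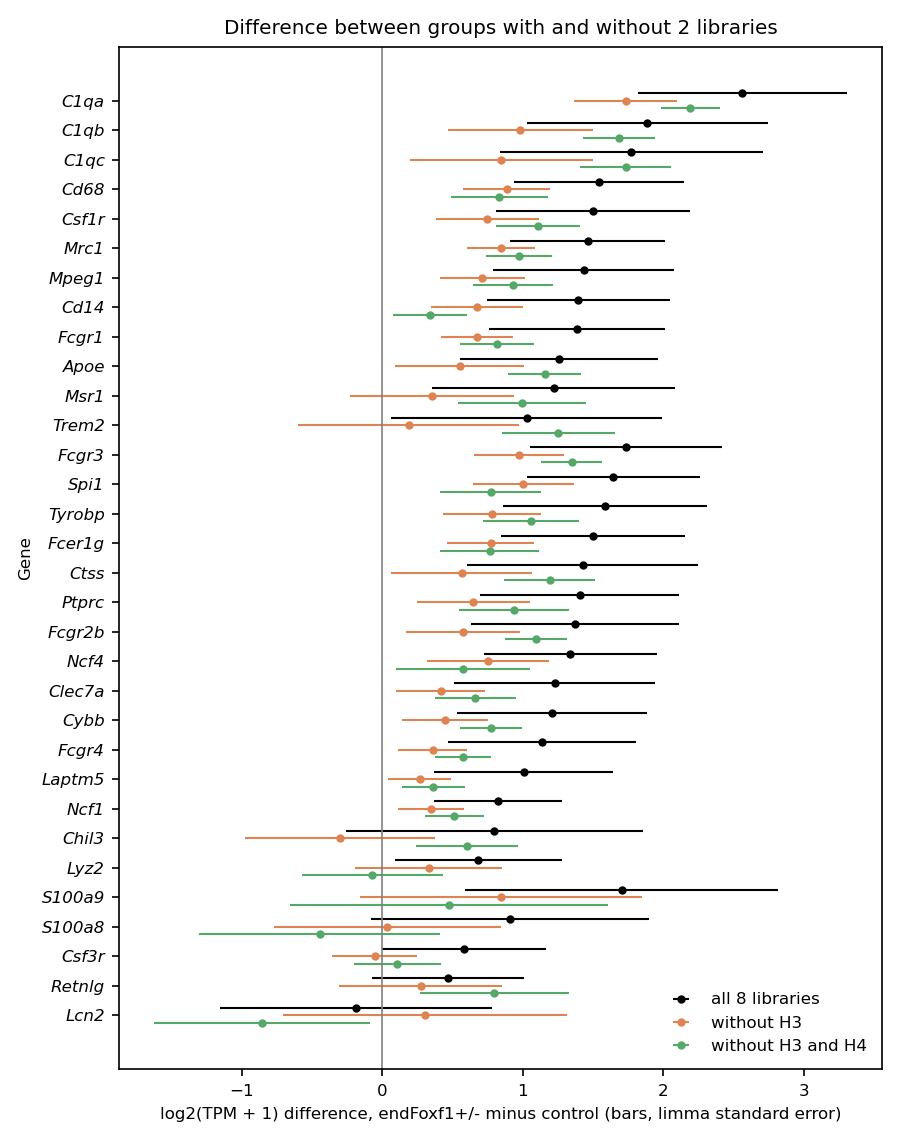
Difference of endFoxf1+/- minus control on the log2(TPM + 1) scale for 32 of the 33 tested genes, with limma standard errors as bars, for all libraries (black), without H3 (orange) and without H3 and H4 (green). Macrophage genes stay above 0 in all 3 sets, and *S100a8*, *Csf3r*, *Chil3*, *Lyz2* and *Lcn2* lie on both sides of 0.

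A wider list of 40 macrophage and monocyte genes ran in the same direction with smaller differences. Of these, 36 were higher and 4 lower (*F13a1*, *P2ry12*, *Plac8*, *Sirpa*), with a median log2 difference of 0.72 (32.0% of all tested genes were higher), and without H3 30 were higher and 10 lower with a median of 0.17 (51.7% of all tested genes were higher). H3 was the highest library for 34 of them, against 13.1%. The groups did not overlap for 6, against 2.73%, namely *C3ar1*, *Ccr2*, *Clec4n*, *Ms4a6c*, *Pla2g7* and *Spp1*, all higher in endFoxf1+/-. *Spp1*, which encodes the secreted matrix protein osteopontin and is abundant in tumor macrophages, measured 107, 85.5, 76.8 and 61.7 TPM in C1 to C4 and 203, 151, 1414 and 136 TPM in H1 to H4. *Ccr2*, the receptor that draws monocytes into tissue, was at 0.703 to 2.45 TPM in controls and 5.02, 2.81, 28.8 and 4.91 TPM in H1 to H4. *Pla2g7*, a secreted lipase, was at 1.88 to 3.86 TPM in controls and 8.82, 8.50, 95.7 and 21.98 TPM in H1 to H4. The log2 differences were 1.76 ± 0.67, 1.60 ± 0.59 and 2.44 ± 0.67 for *Spp1*, *Ccr2* and *Pla2g7* (limma adjusted p = 0.790 for each). Without H3 they were 0.98 ± 0.22, 0.97 ± 0.31 and 1.71 ± 0.36.

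In the other genes without overlap, H3 again held the highest level. *C3ar1*, a complement receptor, was at 2.20 to 3.68 TPM in controls and 7.75, 8.68, 36.4 and 5.35 TPM in H1 to H4. *Clec4n*, a receptor for fungal sugars, was at 3.12 to 8.81 TPM in controls and 11.7, 12.8, 111 and 11.4 TPM in H1 to H4, and *Ms4a6c* was at 2.11 to 2.94 TPM in controls and 3.33, 3.86, 27.9 and 3.39 TPM. Of the 4 most abundant genes of the list, *Ccl6* was at 26.8 to 40.5 TPM in controls and 65.4, 82.6, 489 and 11.6 TPM in H1 to H4, and *Lilrb4a* at 25.1 to 67.7 and 46.9, 59.7, 203 and 29.6 TPM. *Sirpa*, which many cell types express, went the other way, at 51.8 to 95.2 TPM in controls and 46.1, 39.7, 66.9 and 25.6 TPM in H1 to H4.

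A wider list of 26 neutrophil genes was low in most libraries and highest in H3. As percent of the control mean, its geometric mean ran from 64.0% to 140% in C1 to C4 and was 111%, 99.7%, 399% and 97.5% in H1 to H4. H3 was the highest library for 15 of the 26 (background 13.1%) and reached at least 5 times the control mean for 13 (background 3.57%), among them *Mmp9* at 23.8 TPM, *Fpr1* at 17.3, *Il1r2* at 15.4 and *Fpr2* at 14.3 TPM. The backgrounds cover tested genes only, whereas just 7 of the 26 were tested and 13 were under 1 TPM in every control library. Counts and backgrounds for this list are therefore not like for like. Over all libraries 16 were higher and 9 lower in endFoxf1+/- with a median log2 difference of 0.28 (32.0% of all tested genes were higher), and without H3 15 were higher and 10 lower with a median of 0.04 (51.7% of all tested genes were higher). *Ly6g*, the defining surface marker of mouse neutrophils, was listed at 0 in all 8 libraries, and *Elane*, *Prtn3*, *Ngp*, *Cebpe*, *Padi4*, *Asprv1* and *Mrgpra2b* were under 1 TPM in all of them. Of the 26, 7 could be tested and 0 had an unadjusted p under 0.05 by limma over all libraries. Among all tested genes, 2.82% were higher and 2.77% lower at that threshold. *Ltf*, the granule protein lactoferrin, was at 1.62 to 3.40 TPM in controls, 0.564, 0.844 and 5.55 TPM in H1 to H3 and listed at 0 in H4. Its log2 difference was -0.78 ± 0.53 over all libraries and -1.33 ± 0.31 without H3 (exact permutation p = 0.0286, limma adjusted p = 0.404). Without H3 and H4, *Ltf* (-1.08 ± 0.27) and *Clec4d* (0.74 ± 0.25) had an unadjusted p under 0.05 by limma. Of all tested genes, 1477 (9.87%) were higher and 336 lower at that threshold without these libraries. The most abundant, *Il1b*, an inflammatory cytokine also made by macrophages, measured 6.74, 34.7, 25.2 and 5.06 TPM in C1 to C4 and 13.96, 16.3, 242 and 12.03 TPM in H1 to H4. *Clec4d* was at 6.38 to 12.9 TPM in controls and 14.4, 16.9, 100 and 4.67 TPM in H1 to H4. *Hdc*, the histamine-forming enzyme, was at 9.20 to 24.7 TPM in controls and 13.2, 7.11, 7.74 and 38.0 TPM in H1 to H4, and *G0s2* at 2.08 to 5.80 and 6.23, 2.72, 4.52 and 13.3 TPM. *Trem1* was the 1 gene of the 26 without overlap (background 2.73%), at 0.0486 to 0.183 TPM in controls and 0.455, 0.332, 4.85 and 0.473 TPM in H1 to H4, too low to be tested.

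Markers of other cell types were also high in H3, and some in H1 and H2. The 6 fibroblast markers were at 61.5% to 156% of the control mean in controls and 261%, 149%, 884% and 491% in H1 to H4, led by the collagen gene *Col3a1* at 15.6 to 43.4 TPM in controls and 74.4, 44.4, 556 and 118 TPM in H1 to H4. The matrix proteoglycan genes *Dcn* (7.64 to 22.7 TPM in controls and 47.2, 36.6, 533 and 82.6 TPM in H1 to H4) and *Lum* (2.45 to 7.10 TPM and 21.4, 15.3, 183 and 39.7 TPM) were likewise above every control in each endFoxf1+/- library. The log2 differences of *Col3a1*, *Dcn* and *Lum* were 2.28 ± 0.70, 2.64 ± 0.76 and 2.96 ± 0.70 (exact permutation p = 0.0286 for each, limma adjusted p = 0.790), and 1.55 ± 0.43, 1.81 ± 0.41 and 2.23 ± 0.43 without H3, beside 2.56 and 1.73 for *C1qa*. The fibroblast list was not uniform, since in H3 *Col1a2* was at 2.39 TPM, below every control (2.80 to 8.24 TPM), and *Col1a1* at 12.3 TPM or 2.71 times the control mean. The 9 T cell markers were at 91.8% to 105% and at 120%, 157%, 373% and 62.3%. The 5 NK cell markers were at 82.0% to 128% and at 221%, 156%, 636% and 145%, and the 6 B cell markers at 56.3% to 162% and 59.7%, 77.1%, 294% and 65.5%. Not every lymphocyte marker was high in H3, where *Cd3d* (7.91 TPM) was below every control (8.84 to 12.1 TPM) and *Lck* (7.22 TPM) and *Ms4a1* (1.21 TPM) lay within them. The part of any one cell type in the shared genes was not tested.

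The geometric means of the remaining lists did not exceed those of the controls in H3. The 7 dendritic cell markers were at 88.2% to 114% in controls and 134%, 133%, 110% and 60.6% in H1 to H4, although 5 of the 7 were above every control in H3 (background 16.8%) and the abundant *Clec9a* and *Zbtb46* below. In the same order, the 5 mast cell and basophil markers were at 16.8% to 221% and 38.6%, 18.0%, 126% and 176%, the 5 pericyte markers at 75.5% to 124% and 75.0%, 57.5%, 59.1% and 66.7%, and the 8 erythroid and platelet markers at 61.7% to 163% and 57.4%, 74.1%, 27.7% and 48.7%. H1 and H2, whose endothelial markers were at the level of the controls, had a higher level of macrophage genes than any control library (193% and 239% against at most 119%). Their fibroblast markers stood at 261% and 149% (controls at most 156%) and their NK cell markers at 221% and 156% (at most 128%). Their T cell markers stood at 120% and 157% (at most 105%) and their dendritic cell markers at 134% and 133% (at most 114%).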

How the data were processed

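RNA-seq of sorted CD45-CD31+ cells from LLC tumors was analysed in 4 control and 4 endFoxf1+/- libraries, grouped by the sample labels. Per the labels, total RNA was made into Nextera XT libraries. The authors deposited TPM for 33641 gene symbols per library, used as deposited. The submitters' processing notes name TopHat, Cufflinks, Subread and DESeq2 with GRCm38 (mm10). Which of them made the TPM is not given in the sources used here.

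The 35 genes and all gene lists were chosen with earlier results of these data known, as were the exclusions of H3 and H4. Genes were named by a rule: the 35 genes, of both wider lists the 4 with the highest mean TPM and those without overlap between groups, and of each list of another cell type the 3 with the highest mean TPM, of which those beside a result are printed. Further genes of these lists were named after their values were seen, where they make up a count or go against their list. The 14964 genes that reached 1 TPM in 4 or more libraries were compared on log2(TPM + 1), which understates changes of low genes, with limma 3.58.1 (lmFit, eBayes with trend) in R 4.3.3, two-sided, Benjamini-Hochberg over all tested genes, threshold 0.05. The fit was tested on simulated data. Single genes had an exact two-sided permutation test (smallest p 0.0286). Without H3 and H4 the smallest exact p would be 0.0667, so limma was used there. Errors of differences are limma standard errors. Geometric means are of TPM + 1, minus 1. TPM hold no read numbers, so no counting interval was computed and precision rests on the spread between libraries. Gene positions are from GENCODE vM21 on GRCm38. Promoter windows are from RefSeq (GRCm38.p6) and 8 of the 35 genes have none. No libraries were identical. Of the 35 genes, 1 enters all counts and medians, but its own values are not reported here.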

Additional observations from a re-analysis of the deposited data

Results flagged for a closer look

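Within the groups of 4 libraries, a library far from the other 3 was looked for on the log2(TPM + 1) scale in 70 sets of 4 values, and 6 were found, where chance gives about 1 in 20 groups. In 3 sets the distant library was C4, on the low side. *Cd14* was at 7.376 TPM in C4 against 12.67 to 13.69 TPM in the other controls, *Mpeg1* at 4.191 TPM against 7.605 to 8.266 TPM, and *Tyrobp* at 47.67 TPM against 100.4 to 116.1 TPM. In the other 3 sets it was H3, on the high side. *Mrc1* was at 28.75 TPM in H3 against 3.541 to 4.991 TPM in the other endFoxf1+/- libraries, *Csf3r* at 12.65 TPM against 0.8967 to 1.651 TPM, and *Laptm5* at 144.5 TPM against 15.31 to 20.88 TPM. A low C4 and a high H3 both widen the difference of endFoxf1+/- minus control, and the cause of neither was tested.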

How the results depend on the processing

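Depth cannot be read from TPM, 4 libraries per group limit the precision, and results that rest on H3 and H4 rest on libraries poor in endothelial markers. Most genes kept their direction, and the number of the tested macrophage and neutrophil genes higher in endFoxf1+/- was 25 to 34 over all alternatives, the lowest value coming from the stricter filter of at least 5 TPM, which leaves 26 of the 35 genes. The median difference of all tested genes moved from -0.17 to -0.01 with quantile normalization and -0.02 with median ratio scaling, the share of these genes that were higher moved from 32.0% to 49.2% and 48.2%, and 32 of 33 genes kept their direction under each.

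The number of all tested genes with a limma adjusted p under 0.05 (0) was 148 with array weights, which gave H3 a weight of 0.0643 and H4 0.178 against 1.17 to 3.85, 1 with the endothelial marker mean as a covariate, 3 without H3 and H4, and 0 to 1 with each library left out in turn. With array weights, 4 of the 35 genes passed, among them *C1qa* (2.26), *C1qb* (1.66) and *Fcgr3* (1.28). The median difference of the 33 tested macrophage and neutrophil genes fell from 1.39 to 0.75 with array weights and 0.53 with the covariate. For all tested genes the median was 0.13 and 0.07 under these settings. Of the 33 tested macrophage and neutrophil genes, the number lower in endFoxf1+/- (1) was 0 with quantile normalization and with median ratio scaling, 2 with array weights, 3 with the covariate, 3 without H3 and H4, and 0 to 2 with each library left out. The number higher at an unadjusted p under 0.05 (7, background 2.82%) was 21 with array weights (15.2%), 4 with the covariate (5.27%), 19 without H3 and H4 (9.87%), and 1 to 21 with each library left out, namely 4 without C1 (2.06%), 3 without C3 (1.72%), 1 without C4 (1.58%) and 21 without H4 (3.59%). The number above every control in each endFoxf1+/- library (6, background 2.73%) was 22 of 33 tested without H3 and H4 (20.2%) and 6 to 22 with each library left out, 10 without C2 (3.28%) and 22 without H4 (5.71%).

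The direction reversed for 5 of the 33 tested genes under at least 1 alternative, and for the untested *Marco* (0.25 over all libraries, -0.58 without H3 and -0.39 without H3 and H4), and the cause was not tested. *S100a8* was at -0.77 with array weights, -0.25 with the covariate and -0.44 without H3 and H4. *Lcn2* was at 0.13 with quantile normalization, 0.0039 with median ratio scaling and 0.14 with the covariate, and ran from -1.12 to 0.44 with each library left out, above 0 without C3, H2 or H3. *Csf3r* was at -0.15 with the covariate and ran from -0.052 (without H3) to 0.90 with each library left out, *Chil3* was at -0.34 with the covariate and ran from -0.30 (without H3) to 1.77, and *Lyz2* was at -0.069 without H3 and H4. No paired analysis was possible because the sample numbers in the labels are not shared between the groups.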

Other observations

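The 7 markers of the dendritic cell list moved in different directions in H3, where 5 were above every control library (16.8% of all tested genes were) and 2 below. *Clec9a*, which marks cross-presenting dendritic cells, measured 81.5 to 155 TPM in controls and 126, 141, 9.63 and 32.3 TPM in H1 to H4, and *Zbtb46*, a transcription factor of dendritic and of endothelial cells, 43.5 to 59.8 TPM in controls and 67.9, 65.1, 3.49 and 30.6 TPM. Both were lowest in H3, the library with the highest level of 32 of the 35 macrophage and neutrophil genes. *Cd209a*, a marker of monocyte-derived and conventional dendritic cells, was at 0.129 to 0.624 TPM in C1 to C3 and listed at 0 in C4, and was at 1.21, 2.49 and 10.2 TPM in H1 to H3 and listed at 0 in H4. In H3, *Xcr1* was at 1.25 TPM against at most 1.17 in controls, *Flt3* at 1.42 against at most 0.346, and *Siglech* at 2.11 against at most 1.78. *Ccr7*, which migrating dendritic cells carry, was at 0.344 to 0.981 TPM in controls and 1.65, 0.162, 12.5 and 1.52 TPM in H1 to H4, and was highest in H3. The pericyte gene *Rgs5* was below every control (10.7 to 18.9 TPM) in each endFoxf1+/- library, at 3.71, 3.73, 0.602 and 6.66 TPM in H1 to H4, while the pericyte markers *Acta2* (27.1 TPM) and *Pdgfrb* (5.95 TPM) lay inside the controls in H3.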
